A study of Mus musculus with 16 samples.

Results

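Mmrn2, Cd93, Emcn, Egfl7, Cd34 and Ushbp1 are 6 genes that are grouped here as products of endothelial cells. Their transcripts were followed in mouse endothelial cell cultures with or without VE-cadherin (VEC), grown sparse or confluent. All probe sets annotated to the 6 genes were taken on both chips of the array set. 5 of the 6 genes had a probe set, 9 probe sets together, among 24833 probe sets and 13674 named genes in all. No probe set was annotated to Egfl7, which encodes a secreted protein of endothelial cells, in the tables used here, so it has no value below. The genes were chosen because of their signals in these same 4 conditions, so their levels and differences are given as a description, with a standard error (SE) and no test. Not all are proteins of the cell surface. CD93, endomucin and CD34 are membrane proteins, multimerin-2 is a secreted matrix protein, and Ushbp1 is named for binding harmonin, a scaffold protein of sensory hair cells.

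The 4 conditions were confluent VEC-positive cells, sparse VEC-positive cells, confluent VEC-null cells and sparse VEC-null cells. Per the labels, all were endothelial cells that had been derived from murine embryonic stem cells with both copies of the VE-cadherin gene inactivated, and all were held without serum in medium with albumin for 36 h before lysis. The sources used here do not say how the VEC-positive cells came to carry VE-cadherin or whether a line was 1 clone. Each condition was 1 cRNA sample made from 15 µg of total RNA and hybridised to 2 copies each of chip A (MG_U74Av2) and chip B (MG_U74Bv2), which makes 16 arrays. The SE and p-values below therefore measure only the spread between hybridisations of the same cRNA, which is technical, and not the spread between cultures.

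VE-cadherin holds neighbouring endothelial cells together at adherens junctions and gathers there once cells touch. Multimerin-2, encoded by Mmrn2, is an endothelial matrix glycoprotein of the EMILIN family, and it is bound at the cell surface by CD93 and other lectin-like receptors of the same family. Endomucin (Emcn) and CD34 are heavily glycosylated sialomucins of the vessel lumen. They are known for keeping the surface non-adhesive, and, when carrying suitable sulfated sugars, for presenting ligands to L-selectin on leukocytes.

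Promoters of 4 of the 6 genes (Emcn, Egfl7, Cd34 and Ushbp1) were in the RefSeq table of mouse assembly GRCm38.p6. The windows run 250 bases before to 50 bases after the start of the gene. Those of Emcn, Ushbp1 and Cd34 are shown because these 3 measured genes differed in their density pattern, as described below. Capitals mark AGGAAG or its reverse complement CTTCCT, the core bound by ETS factors, and AACAAT or its reverse complement ATTGTT, a core bound by SOX factors. Both strands were searched, the 2 motifs do not overlap here, and the motifs were chosen with these sequences in view.
Emcn, chr3:137340828-137341127, plus strand: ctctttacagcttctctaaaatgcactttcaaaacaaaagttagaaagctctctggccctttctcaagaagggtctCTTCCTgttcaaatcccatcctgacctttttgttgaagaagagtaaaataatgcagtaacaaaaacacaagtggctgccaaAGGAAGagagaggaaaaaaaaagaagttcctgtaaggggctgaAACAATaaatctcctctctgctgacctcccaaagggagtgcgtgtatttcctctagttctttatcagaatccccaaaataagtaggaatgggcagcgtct
Ushbp1, chr8:71395752-71396051, minus strand: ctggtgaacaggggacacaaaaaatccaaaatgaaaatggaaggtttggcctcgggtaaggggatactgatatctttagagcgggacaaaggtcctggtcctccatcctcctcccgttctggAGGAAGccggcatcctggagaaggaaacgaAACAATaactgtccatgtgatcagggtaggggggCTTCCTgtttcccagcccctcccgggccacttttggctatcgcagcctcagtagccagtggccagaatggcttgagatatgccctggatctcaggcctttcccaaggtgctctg
Cd34, chr1:194938571-194938870, plus strand: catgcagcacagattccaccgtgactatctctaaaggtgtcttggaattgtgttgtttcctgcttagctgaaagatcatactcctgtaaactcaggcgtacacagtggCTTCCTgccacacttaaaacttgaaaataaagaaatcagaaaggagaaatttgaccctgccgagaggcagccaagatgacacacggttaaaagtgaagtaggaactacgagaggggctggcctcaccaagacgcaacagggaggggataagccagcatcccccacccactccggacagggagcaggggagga
The Emcn window held the ETS core at positions -174 and -93 from the start site and the SOX core at -50. The Ushbp1 window held the ETS core at -128 and -64 and the SOX core at -98. The Cd34 window held the ETS core at -142 and no match to AACAAT. Among 32851 promoters of the same length, 35.4% held AGGAAG and 10.7% held AACAAT on either strand. The GATA core AGATAA was in 11.2% of all promoters and in none of these 3 windows. A match describes the letters only.

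Mmrn2 had a MAS5 signal of 11892.9 and 11025.2 on the copies from confluent VEC-positive cells. Its signal was 920.8 and 1277.8 in sparse VEC-positive cells, 1398.6 and 1096.9 in confluent VEC-null cells, and 272.9 and 238.7 in sparse VEC-null cells. Confluent VEC-positive cells stood far above the other 3 conditions, sparse VEC-null cells lay below all others, and the 2 conditions between them overlapped. The mean in the highest condition was 44.8 times that in the lowest. In confluent cells the mean was 9.18 times as high in VEC-positive cells as in VEC-null cells, and in sparse cells 4.30 times. On the scale used for all fits, log2 of the signal plus 50, these line differences were 3.16 (SE 0.17) when confluent and 1.89 (SE 0.17) when sparse. The density differences, confluent minus sparse, were 3.34 in VEC-positive cells and 2.08 in VEC-null cells, each with an SE of 0.17. The density difference of VEC-positive cells thus exceeded that of VEC-null cells by 1.26 (SE 0.23). In samples of whole cultures, fewer cells of a type and less RNA per cell cannot be told apart. Mmrn2 lies on chromosome 14, where the median gene was itself 0.23 higher in confluent and 0.26 higher in sparse VEC-positive cells than in VEC-null cells (313 genes). Less that median, the Mmrn2 line differences were 2.92 and 1.64.

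**Figure D1:**
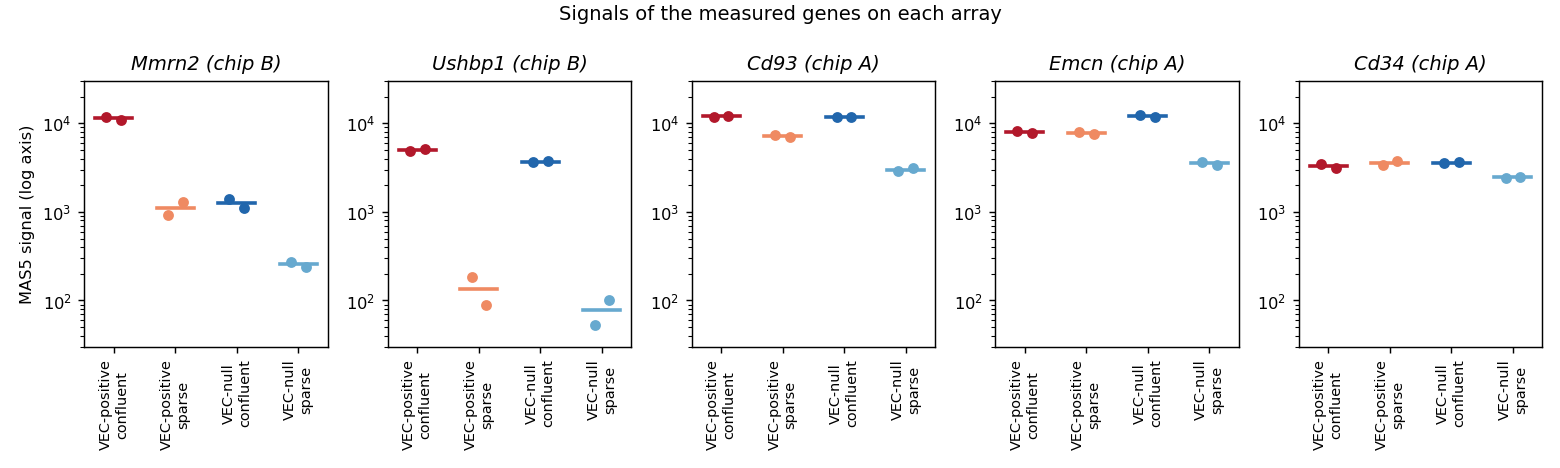
MAS5 signal (log axis) of the representative probe set of each of the 5 measured genes in the 4 conditions; points are the 2 array copies and the line is their mean. Mmrn2 reached 11892.9 and 11025.2 in confluent VEC-positive cells alone, Ushbp1 was high in both confluent conditions, Cd93 and Emcn were lowest in sparse VEC-null cells, and Cd34 spanned the least.

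Cd93 encodes a transmembrane receptor with a C-type lectin-like domain that binds multimerin-2, and it had 1 probe set on each chip. On chip A its signal was 11859.1 and 12234.4 in confluent VEC-positive cells, 7331.8 and 7031.2 in sparse VEC-positive cells, 11724.6 and 11838.0 in confluent VEC-null cells, and 2873.0 and 3145.1 in sparse VEC-null cells. On chip B it was 26205.8 and 28458.1, 16248.6 and 15347.4, 31880.5 and 30694.1, and 7587.0 and 7668.3 in the same order of conditions. Both probe sets put sparse VEC-null cells lowest and sparse VEC-positive cells next, with no overlap. They disagreed on which confluent condition was higher, so the order of those 2 is not settled. The line difference in confluent cells was 0.03 (SE 0.07) on chip A and -0.20 (SE 0.07) on chip B, against 1.24 and 1.05 in sparse cells. The density difference was 0.74 in VEC-positive cells and 1.95 in VEC-null cells on chip A, and 0.79 and 2.03 on chip B. Unlike Mmrn2, Cd93 thus had a smaller density difference in VEC-positive cells than in VEC-null cells, by -1.21 (SE 0.10) on chip A and -1.24 (SE 0.09) on chip B. In confluent cells the mean of the receptor transcript in VEC-positive cells was 1.02 times that in VEC-null cells on chip A and 0.874 times on chip B, where the transcript of its matrix ligand stood at 9.18 times.

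The arrays of confluent VEC-positive cells also had the lowest signals of the Affymetrix Gapdh controls, 12920 and 12788 on chip A. The remaining chip A arrays read 16729 to 21421 for these controls. On chip B, which carries Mmrn2 and Ushbp1, they were 29270 and 28590 against 36572 to 55583. The 3' to 5' ratio of the Gapdh control on chip B was 1.23 and 1.14 in confluent VEC-positive cells and 0.91 to 1.00 elsewhere. That of actin on chip B was 1.21 and 1.28 against 1.21 to 1.31. On chip A the actin ratio was 1.33 and 1.26 against 1.11 to 1.25. The Gapdh ratio there was 1.01 and 0.97 against 0.90 to 0.99. Actin control signals of confluent VEC-positive cells were the lowest too. They were 19212 and 19634 against 23086 to 30459 on chip A, and 39700 and 44001 against 58107 to 69054 on chip B. The part of these controls and ratios in the results was not tested. With arrays scaled to the Gapdh and actin controls instead, a choice made after seeing them, the Cd93 line difference in confluent cells was 0.55, close to the shift of 0.505 that this scaling gave to the median of all probe sets. With quantile normalisation it was 0.31. The density difference of Cd93 in VEC-positive cells was then 1.17 under control scaling and 1.10 under quantile normalisation, past 1, and the difference between the lines' density differences was -0.77 and -0.78, short of 1. The Mmrn2 differences stayed at 1.14 or above in all 5 comparisons under both.

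The other genes of these 2 families were described from lists written for this work. Emilin1, a matrix glycoprotein of elastic fibres, rose with VEC in confluent cells by 1.28 (SE 0.19, adjusted p = 0.000732) and with confluence by 1.67 (SE 0.19, adjusted p = 6.68e-05) in VEC-positive cells and 1.02 (SE 0.19, adjusted p = 0.0015) in VEC-null cells. Its signal was 1265.2 and 1207.3 in confluent and 351.2 and 359.6 in sparse VEC-positive cells, and 457.0 and 506.1 in confluent and 174.1 and 256.0 in sparse VEC-null cells. Confluent VEC-positive cells were thus highest for Emilin1 as well as for Mmrn2. The difference between its density responses, 0.65 (SE 0.27, adjusted p = 0.0986), did not pass, and neither did its line difference in sparse cells, 0.63. Emilin2 passed no comparison, Emilin3 was below the filter on low signals, and Mmrn1 had no probe set.

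Clec14a, an endothelial lectin-like receptor related to CD93 that also binds multimerin-2, rose with confluence by 3.53 (SE 0.42, adjusted p = 8.98e-05) in VEC-positive cells and 4.18 (SE 0.42, adjusted p = 2.71e-05) in VEC-null cells. Its signal was 1659.5 and 2077.7 in confluent and 47.7 and 229.0 in sparse VEC-positive cells, and 3103.0 and 2776.7 in confluent and 77.8 and 161.1 in sparse VEC-null cells. The lines did not differ past the threshold at either density (-0.65, adjusted p = 0.265 when confluent, and 0.01, adjusted p = 0.991 when sparse). Cd248, a further such receptor, changed in no comparison past the threshold, with differences between 0.02 and 0.14, and Thbd, encoding thrombomodulin, was below the filter. Of 8 further genes known to work with CD93 or multimerin-2, 7 were tested. 1 of them passed 1 comparison: Itga5, the integrin alpha chain of the main fibronectin receptor, was higher by 1.25 (SE 0.27, adjusted p = 0.00356) in confluent than in sparse VEC-null cells. Gipc1, an adaptor bound by CD93, was -0.97 (SE 0.11) with confluence in VEC-positive cells and did not pass, while another of its probe sets gave -1.12 and passed. In that list 3, 4, 4, 4 and 4 of the 7 genes had an unadjusted limma p below 0.05 in the 5 comparisons (line when confluent, line when sparse, density in VEC-positive, density in VEC-null, and difference between the lines' density differences). Over all 14246 probe sets the share at the same p was 43.5%, 48.0%, 54.9%, 53.3% and 39.9%. Dag1, encoding dystroglycan, was 0.70 and 0.99 higher in VEC-positive cells when confluent and sparse, short of 1 in both.

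Emcn had 3 probe sets, all on chip A. The representative one had signals of 8097.5 and 7868.7 in confluent VEC-positive cells, 8041.1 and 7629.5 in sparse VEC-positive cells, 12287.1 and 11753.2 in confluent VEC-null cells, and 3651.1 and 3418.9 in sparse VEC-null cells. Confluent VEC-null cells were highest and sparse VEC-null cells lowest on all 3 probe sets, with VEC-positive cells of both densities between them. The representative signals of VEC-positive cells overlapped between the densities. The density difference was 0.03 (SE 0.07) in VEC-positive cells and 1.75 (SE 0.07) in VEC-null cells on this probe set. On the other probe sets it was 0.11 and 0.39 in VEC-positive cells, and 1.28 and 1.69 in VEC-null cells. The representative value in VEC-positive cells was 0.48 under quantile normalisation. Under control scaling it was 0.46, where the median of all probe sets moved to 0.661. The line difference was -0.59 (SE 0.07) in confluent cells and 1.14 (SE 0.07) in sparse cells, so the sign of the line difference changed with density. The other probe sets gave -0.24 and -0.33 in confluent cells and 0.93 and 0.97 in sparse cells. Under control scaling the representative line difference in confluent cells was -0.07, where the median of all probe sets moved to 0.505, and under quantile normalisation -0.23. The difference between the lines' density differences was -1.72 (SE 0.10), with -1.28 under control scaling and -1.22 under quantile normalisation.

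Cd34 was the steadiest of the 5 genes. Its representative probe set had signals of 3453.1 and 3153.5 in confluent VEC-positive cells, 3342.2 and 3708.2 in sparse VEC-positive cells, 3548.2 and 3620.8 in confluent VEC-null cells, and 2442.9 and 2496.8 in sparse VEC-null cells. The first 3 conditions overlapped in part, and sparse VEC-null cells were lower than all of them. The mean of the highest condition was 1.45 times that of the lowest. The density difference was -0.09 (SE 0.09) in VEC-positive cells and 0.53 (SE 0.09) in VEC-null cells. The line difference was -0.12 (SE 0.09) when confluent, which became 0.40 under control scaling, and 0.50 (SE 0.09) when sparse. A further probe set, at 2187.8 and 1920.6, 2028.7 and 1653.0, 2558.9 and 2292.1, and 1725.4 and 1682.9 in the same order of conditions, gave 0.10 (SE 0.12) for the line difference in sparse cells, where VEC-positive and VEC-null copies overlapped.

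**Figure D2:**
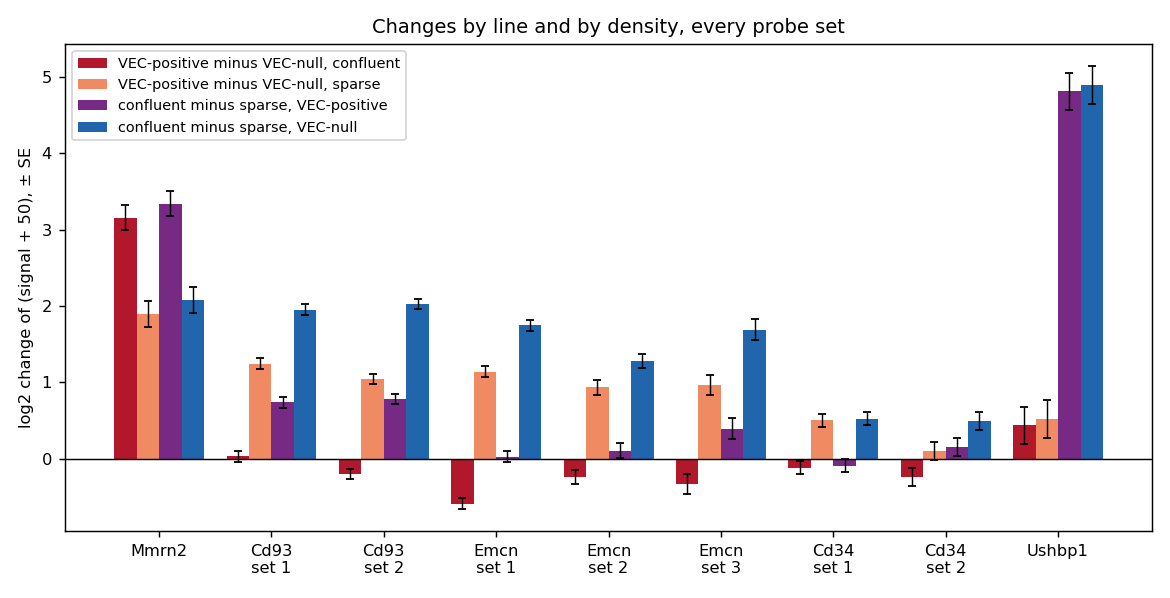
Difference in log2(signal + 50) for all 9 probe sets, with bars starting at 0 and error bars of 1 SE, for the line comparison at each density and the density comparison in each line. The 2 Cd93 probe sets and the 3 Emcn probe sets show line differences near or below 0 in confluent cells and near 1 in sparse cells, and Ushbp1 shows density differences of 4.81 and 4.89.

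Among related sialomucins, Podxl, encoding podocalyxin of the CD34 family, was lower with VEC in confluent cells, by -1.55 (SE 0.21, adjusted p = 0.000478). That probe set was dim, with signals of 40.3 and 31.9 in VEC-positive against 171.1 and 236.4 in VEC-null cells. Another Podxl probe set, on chip B, averaged 8486.6 in confluent and 3865.7 in sparse VEC-positive cells, and 10712.0 in confluent and 2426.4 in sparse VEC-null cells. On it, the line difference in confluent cells was -0.33 and did not pass, while the gene was higher with confluence by 1.13 in VEC-positive and 2.12 in VEC-null cells, both past the threshold. Madcam1, the mucosal addressin, rose with VEC in confluent cells by 1.15 (SE 0.30, adjusted p = 0.0161) and with confluence in VEC-positive cells by 1.41 (SE 0.30, adjusted p = 0.0038), at signals of 270.0 and 243.8 in confluent VEC-positive cells and 33.1 to 134.5 elsewhere. Its further probe set gave 1.17, which passed, and 0.91, which did not. Podxl2 and Glycam1 were below the filter. Of the enzymes that build L-selectin ligands, 4 of 8 listed genes were tested. Chst1, a sugar sulfotransferase, was 1.18 (SE 0.24, adjusted p = 0.00358) higher with VEC in sparse cells and fell by 1.31 with confluence in VEC-positive cells (SE 0.24, adjusted p = 0.00149). Its signal was 526.0 and 654.5 in sparse VEC-positive cells and 170.0 to 362.8 elsewhere. Chst2, Gcnt1 and C1galt1 passed no comparison, although another Gcnt1 probe set on chip B was lower with confluence by -1.35 and -1.06 in VEC-positive and VEC-null cells and passed.

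Ushbp1 showed the widest density difference of the 5 genes in both lines. Its signal was 4894.3 and 5081.3 in confluent and 181.9 and 89.4 in sparse VEC-positive cells, and 3624.3 and 3709.3 in confluent and 52.5 and 102.5 in sparse VEC-null cells. Both confluent conditions lay far above both sparse ones, confluent VEC-positive copies lay above confluent VEC-null copies, and the sparse conditions overlapped. The density difference was 4.81 (SE 0.25) in VEC-positive cells and 4.89 (SE 0.25) in VEC-null cells. The difference between the lines' density differences was -0.09 (SE 0.35), smaller in size than an SE that holds no spread between cultures. Under control scaling this value was 0.58, where the median of all probe sets moved to 0.584, and under quantile normalisation it was 0.00. The mean signals differed 36.8-fold and 47.3-fold by density, but the sparse signals were among the dim values of chip B, the lowest at its percentile 20.3. The tables hold no detection calls, so these ratios depend on signals that may not be above background. The line difference was 0.44 (SE 0.25) when confluent, 0.94 under control scaling, and 0.52 (SE 0.25) when sparse. Ushbp1 lies on chromosome 8, where the median of 507 genes was 0.29 and 0.22 higher in VEC-positive cells, and less that median its line differences were 0.15 and 0.30. Leaving out 1 or the other sparse VEC-positive copy put the sparse line difference at 0.16 or 0.89.

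Of the listed partners of Ushbp1, Myo7a, a myosin of hair cells that works with harmonin, was the 1 gene with a probe set. It was higher with confluence in VEC-null cells by 1.26 (SE 0.23, adjusted p = 0.00153), and its 0.51 in VEC-positive cells did not pass (adjusted p = 0.0964). The difference between these responses, -0.75 (SE 0.33, adjusted p = 0.121), did not pass. Among relatives of Egfl7, the epidermal growth factor-like genes Egfl8, Megf6 and Scube1 were below the filter, with mean signals of at most 122.7, and Egfl6 had no probe set.

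Read with the threshold used for all genes (adjusted p below 0.05 and at least 1 on the log2 scale), 1 of the 5 genes, Mmrn2, was higher in VEC-positive than in VEC-null cells when confluent, where 4.31% of 14246 probe sets were called higher. In sparse cells 3 were higher (Mmrn2, Cd93 and Emcn), where 5.43% of all were. The Emcn call held for its representative probe set only, as the others gave 0.93 and 0.97. Under quantile normalisation the representative value was 0.988, short of 1. With confluence 2 were higher in VEC-positive cells (Mmrn2 and Ushbp1), where 8.16% of all were, and 4 in VEC-null cells (all but Cd34), where 9.1% of all were. For the difference between the lines' density differences, 1 was called higher (Mmrn2; 5.91% of all) and 2 lower (Cd93 and Emcn; 6.34% of all). Since the genes were picked on these signals, nothing is read from these counts. The median of all probe sets was between -0.03 and 0.02 in the 5 comparisons.

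The targeted gene, Cdh5, encodes VE-cadherin. Its single probe set had signals of 2607.2 and 2525.8 in confluent and 1464.4 and 1333.7 in sparse VEC-positive cells, and 2707.2 and 2508.7 in confluent and 1255.4 and 1281.6 in sparse VEC-null cells. The lines did not differ past the threshold when confluent (-0.02, adjusted p = 0.874) or sparse (0.13, adjusted p = 0.258). The sources used here do not say which part of the gene was inactivated or whether the probes lie in it. This signal therefore does not check the line labels, and the lines are called as labelled. The endothelial markers Kdr, Tek, Tie1, Flt1, Eng and Icam2 passed the filter, and their representative probe sets had mean signals of at least 180.2 in every condition. 2 further Flt1 probe sets were lower in sparse cells, at means of 88.3 and 86.1 in VEC-positive and 157.9 and 91.4 in VEC-null cells. In contrast, Pecam1 averaged 158.25 in confluent and 118.00 in sparse VEC-positive cells, and 168.95 in confluent and 180.75 in sparse VEC-null cells, near the filter of 159.4. Its copies differed widely when confluent, at 73.6 and 242.9 in VEC-positive and 51.1 and 286.8 in VEC-null cells, so these means are imprecise. The endothelial markers were not level across the conditions. Kdr, Tek, Tie1, Flt1 and Icam2 were higher with confluence past the threshold in both lines, while Eng was not. Kdr, for example, averaged 2266.25 in confluent and 289.35 in sparse VEC-positive cells. In VEC-null cells Kdr averaged 4234.35 and 595.45, and its line differences were -0.89 and -0.93, short of 1.

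Differences of other endothelial genes by line or density were described on a list of 61 endothelial surface and marker genes. The list left out the 6 genes described above, and 56 of its genes had a probe set and 51 passed the filter. It was written with earlier results of these data known, so its counts and medians are a description and no test of endothelial genes as a set. With confluence, 26 rose and 4 fell in VEC-positive cells, where 15.4% of all probe sets were called (8.16% higher and 7.22% lower), and 33 rose and 2 fell in VEC-null cells, where 16.5% were called (9.1% higher and 7.41% lower). The list's median density difference was 1.17 and 1.42, against 0.02 and -0.003 over all probe sets. 21 genes rose in both lines, which is 80.8% of those that rose in VEC-positive cells and 63.6% of those that rose in VEC-null cells, and 13 rose in neither. The overlap over all probe sets was not counted. These shares therefore do not tell whether the overlap is particular to endothelial genes. For the lines, 9 genes were higher and 3 lower with VEC when confluent (7.93% of all called, 4.31% higher and 3.62% lower; list median 0.02), and 9 were higher and 2 lower when sparse (9.7% of all called, 5.43% higher and 4.27% lower; list median 0.19). The density responses of the lines differed for 20 genes (12.2% of all called, 5.91% higher and 6.34% lower), 9 with a higher value in VEC-positive cells and 11 with a lower one. With arrays scaled to the controls these counts were 14 and 5, and those for the lines when confluent 16 higher and 1 lower. Over all 14246 probe sets this scaling called 3430 higher and 291 lower for the difference between the responses. For the lines when confluent it called 2422 higher and 190 lower. The splits in the list thus went the way of all probe sets. Averaged over both densities, 6 genes of the list differed between the lines (5.4% of all probe sets called), against 2 in a fit with the 4 cRNA samples as units, and averaged over both lines, 35 differed by density (12.9% of all called). For the difference between the responses, the Cd93 and Emcn values lie on the side of the 11, and the Mmrn2 value on the side of the 9. The Cd34 value was also negative but was not called. It was -0.62, with -0.34 on its further probe set and -0.18 under control scaling.

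In confluent cells the largest line differences of the list were those of Cldn5, the tight junction protein claudin-5, higher with VEC by 5.74 (SE 0.27, adjusted p = 7.75e-07), and Vwf, von Willebrand factor, higher by 5.16 (SE 0.16, adjusted p = 9.44e-08). Cldn5 had signals of 5222.3 and 5008.3 in confluent VEC-positive cells and 10.2 to 78.0 elsewhere. The high group of Cldn5 and Vwf was confluent VEC-positive cells alone, the condition where Mmrn2 was highest. Cd200, an immune-inhibitory membrane protein, Stab2, a scavenger receptor for hyaluronan, and Aplnr, the apelin receptor, were higher by 2.10, 1.84 and 1.82 (adjusted p = 0.000107, 0.00193 and 0.000116). In sparse cells, Ptprb, the endothelial phosphatase VE-PTP that associates with VE-cadherin, was higher with VEC by 1.74 (SE 0.10, adjusted p = 2.69e-06), with signals of 1087.3 and 1150.6 in VEC-positive against 308.4 and 290.2 in VEC-null cells. Ptprb was also higher with VEC in confluent cells, by 1.57 (SE 0.10, adjusted p = 6.75e-06). Its further probe sets gave 1.59 and 1.03 when confluent and 2.06 and 2.53 when sparse, and all passed. Also in sparse cells, Adgrf5, an adhesion G protein-coupled receptor, Cd44, the hyaluronan receptor, and Tie1, an angiopoietin co-receptor, were higher by 1.72, 1.52 and 1.37 (adjusted p = 2.88e-06, 0.000341 and 8.54e-06). A further Tie1 probe set gave 0.44 and did not pass. Vcam1, a leukocyte adhesion molecule, was lower with VEC in sparse cells by -2.26 (SE 0.15, adjusted p = 6.32e-06), but its other 2 probe sets gave -0.12 and -0.45 and did not pass.

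Among the strongest density responses, Gpr182, an endothelial chemokine scavenger, rose by 4.89 (SE 0.29, adjusted p = 9.38e-07) in VEC-positive and 3.44 (SE 0.29, adjusted p = 9.45e-06) in VEC-null cells. Stab1, a scavenger receptor, rose by 4.43 and 3.91 (adjusted p = 1.04e-08 and 1.81e-08), although its other probe set on chip B gave 0.06 and 0.77 and did not pass. Adgrl4, an adhesion receptor of angiogenic endothelium, rose by 3.93 and 3.17 (adjusted p = 1.08e-07 and 3.8e-07). Like Ushbp1, these 3 genes were high in both confluent conditions and low in both sparse ones. Tie1 rose by 2.13 (SE 0.10, adjusted p = 1.96e-07) in VEC-positive and 3.32 (SE 0.10, adjusted p = 1.65e-08) in VEC-null cells, and Cldn5 and Vwf rose by 6.01 and 4.80 in VEC-positive cells, while their 0.64 and 0.16 in VEC-null cells did not pass. Selp, P-selectin, had a density response that was lower in VEC-positive than in VEC-null cells by -1.95 (SE 0.21, adjusted p = 0.000211), the direction seen for Cd93 and Emcn.

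**Figure D3:**
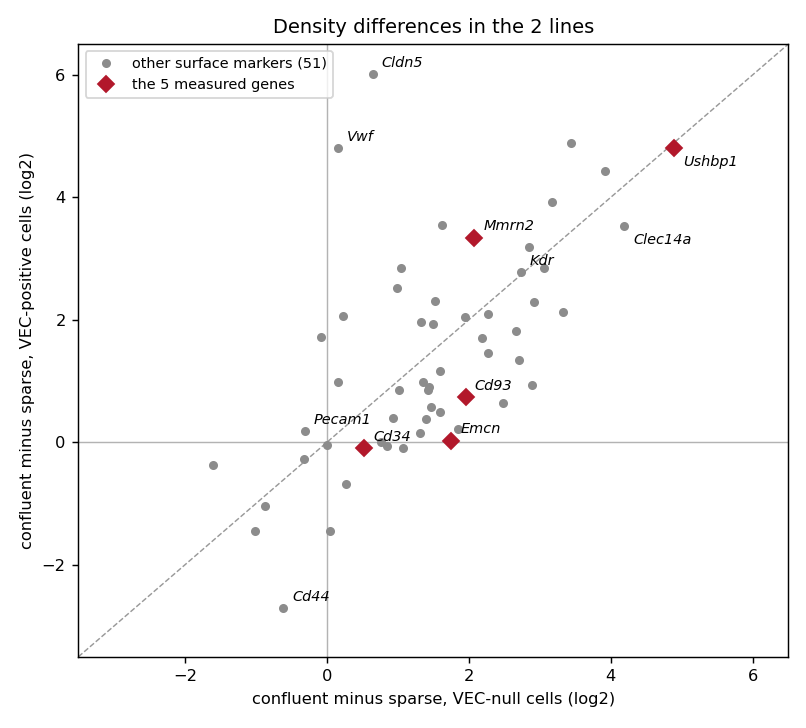
Confluent minus sparse difference in log2(signal + 50) for VEC-positive cells (vertical axis) and VEC-null cells (horizontal axis); red diamonds are the 5 measured genes, grey points 51 other endothelial surface genes, and the dashed line marks equal differences. Ushbp1 lies on the line, Mmrn2 above it, Cd93, Emcn and Cd34 below it, and Cldn5 and Vwf farthest above it.

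Markers of other cell types were also read. Of 8 fibroblast markers 4 were tested, and the summed signal of the 8 on chip A was 1750.1 to 2032.3 in confluent and 1345.9 to 1614.2 in sparse VEC-positive cells, and 3533.6 to 4000.1 in confluent and 1341.7 to 1544.8 in sparse VEC-null cells. The excess in confluent VEC-null cells, the condition where Emcn was highest, came with the matrix genes Col3a1 and Postn, lower in confluent VEC-positive cells by -4.04 and -3.68. Dcn was instead higher in them, by 1.18, while Thy1 was at mean signals of 14.85 to 22.05 in all conditions. Of 8 smooth muscle and pericyte markers 3 were tested, and the sum of the 7 on chip A was 159.7 to 203.1 in confluent and 383.6 to 409.7 in sparse VEC-positive cells, and 551.5 to 655.0 in confluent and 675.7 to 687.2 in sparse VEC-null cells. Pdgfrb, a pericyte receptor, was at a mean of 327.65 in confluent VEC-null cells and 9.5 to 13.0 elsewhere, lower with VEC in confluent cells by -2.65 (adjusted p = 1.44e-05). Acta2, smooth muscle actin, fell with confluence, at -1.72 in VEC-positive and -1.29 in VEC-null cells (adjusted p = 1.98e-05 and 0.000124). It was also lower with VEC, by -1.64 in confluent and -1.20 in sparse cells (adjusted p = 7.35e-05 and 0.000338). Tagln, the remaining tested marker, did not differ by line past the threshold (0.26 and 0.09). Its density difference was -0.95 in VEC-positive cells, short of 1, and -1.13 in VEC-null cells, which passed. Cnn1, Myh11, Cspg4, Des and Rgs5 were below the filter, at means of at most 71.05. A further Myh11 probe set averaged 284.1 to 479.6 and passed no comparison. For blood cells, 4 of 10 markers with a probe set were tested, with sums of 1482.8 to 1628.9 in confluent and 1625.3 to 1677.7 in sparse VEC-positive cells, and 2031.7 to 2353.4 in confluent and 1302.3 to 1365.1 in sparse VEC-null cells. Ptprc, the pan-leukocyte marker CD45, was at mean signals of 9.1 to 14.05 throughout. Cd68, a macrophage marker, was instead at a mean of 910.0 in confluent VEC-null cells and 273.25 to 352.85 elsewhere, lower with VEC in confluent cells (log2 difference -1.5, SE 0.17, adjusted p = 0.000146). Of 6 embryonic stem cell markers 1 was tested, and sums stayed between 308.4 and 471.6. For epithelial cells, 2 of 6 markers were tested. Krt19 was at a mean of 904.7 in sparse VEC-positive cells and 3.9 to 5.6 elsewhere. A further Krt19 probe set, below the filter, averaged 47.9 there and 5.2 to 9.4 elsewhere. Cdh1, the other gene tested, was at means of 305.1 to 406.8 and passed no comparison. Epcam, Krt8, Krt14 and Krt18 were below the filter, at means of at most 41.3 in sparse VEC-positive cells. Transcripts made by other cells and by the endothelial lines themselves cannot be told apart here, and their part in the results was not tested.

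For each gene that spanned at least 1 on the log2 scale over the 4 conditions, the 3 most similar genes on the same chip were found by Pearson's r of log2(signal + 50) over its 8 arrays. The arrays are copies of only 4 cRNA samples, so r is a description. For Mmrn2, among 2119 candidates on chip B, these were Rala, a small GTPase (r = 0.990), Fchsd2, an endocytic adaptor (r = 0.990), and Cd55, a complement inhibitor (r = 0.989). Cd55 averaged 4213.0 in confluent and 1244.2 in sparse VEC-positive cells, and 1345.9 in confluent and 448.0 in sparse VEC-null cells. For Ushbp1 they were Gbp6, an interferon-inducible guanylate-binding protein (r = 0.998), Tgfbr3, the co-receptor betaglycan (r = 0.993), and Prcp, a lysosomal carboxypeptidase (r = 0.993). For Cd93, among 2143 candidates on chip A, they were Cpt1a, the carnitine transferase of fatty acid oxidation (r = 0.997), Atp6v0a1, a proton pump subunit (r = 0.996), and Crem, a cAMP-responsive transcription factor (r = 0.996). For Emcn they were Nbeal2, a granule biogenesis protein (r = 0.997), Ptprs, a receptor phosphatase (r = 0.994), and Cpd, a carboxypeptidase (r = 0.993). Cd34, which spanned 0.53, was not searched.

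**Figure D4:**
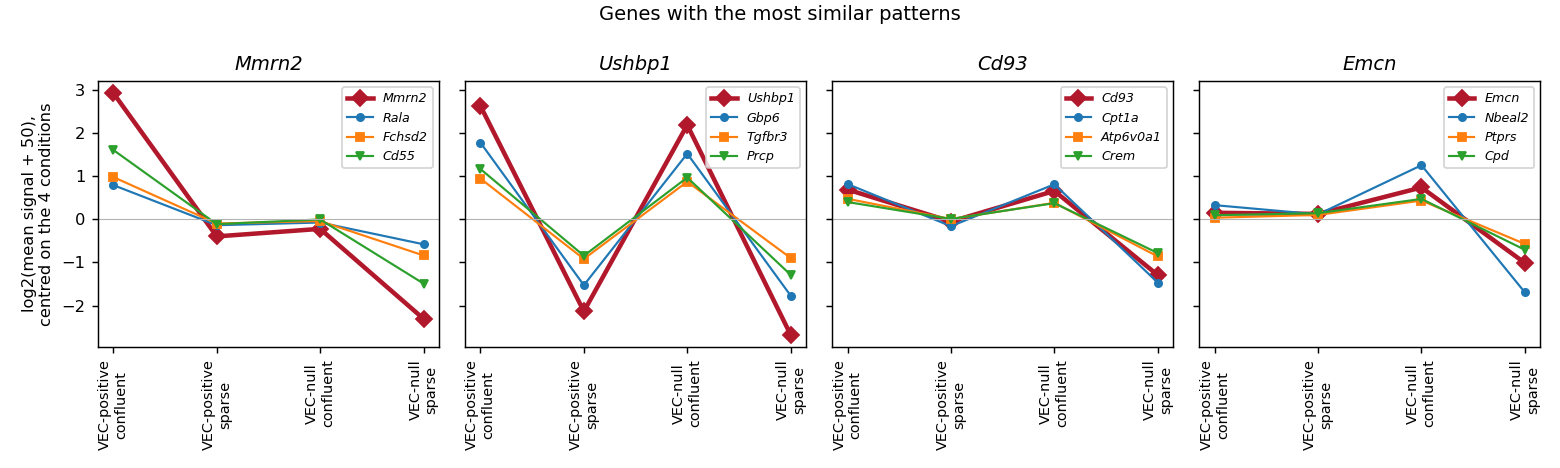
Log2 of the mean signal plus 50 per condition, centred on the mean of the 4 conditions, for Mmrn2, Ushbp1, Cd93 and Emcn (red) and the 3 genes with the most similar pattern. The shapes coincide while the sizes differ: means of log2(signal + 50) spanned 5.24 for Mmrn2 and 1.37 for Rala.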

How the data were processed

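Transcripts were measured on 16 Affymetrix arrays, 2 copies of each of 2 chips for each of 4 cRNA samples. The deposited values are intensities, the MAS5 signal on a linear scale, brought by the authors to an array target of 500 in MAS5, per the labels' design text (trimmed means 500.12 to 500.31, leaving out 2% at each end). That text also names median normalisation across samples, which was not seen in the values. The sources used here give no software versions or detection calls, and the number of arrays limits the precision.

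Of 24833 probe sets other than the 66 controls per chip, 21414 had 1 gene symbol, 574 several (not named) and 2845 none. Symbols were checked through Entrez identifiers against RefSeq (GRCm38.p6; 21367 matched, 0 changed). A gene was represented by its chip A probe set before chip B, then by the brightest.

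Values were tested as log2(signal + 50) with limma 3.58.1 in R 4.3.3, per chip over all 4 groups, with residual degrees of freedom of 4 and a mean-variance trend. A probe set was kept if at least 1 group mean lay above its chip's median (signal 159.4 on chip A and 235.1 on chip B), leaving 14246. All adjusted p values are from these limma fits, by Benjamini-Hochberg over both chips together. A call needed adjusted p under 0.05 with a difference of 1 or more. The fold of a dim gene is understated on this scale. Copies of a condition correlated at 0.945 to 0.987. The test was checked on simulated data. The genes described and all lists were chosen with earlier results of these data known. The text names the genes described, the 3 genes most like each, the tested genes of the family and partner lists, up to 5 surface genes per comparison with the largest called change, and Cdh5. All 8 endothelial markers are named. Of the markers of other cell types, Thy1, Ptprc, Cd68, Krt19, Col3a1, Dcn, Postn, Pdgfrb and Acta2 were named after their values were seen. The remaining smooth muscle, pericyte and epithelial markers of the lists were then named too. Alternatives were other offsets, filters, scalings, probe set rules and left-out copies.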

Additional observations from a re-analysis of the deposited data

Results flagged for a closer look

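The density response, confluent minus sparse, differed between the lines past the threshold (limma interaction) for 19 of the named genes outside the 6 that the report describes. Over all probe sets 12.2% were called. Many of the 19 were named for a large called change or after their values were seen, so nothing is read from this count. Values are the response of VEC-positive cells less that of VEC-null cells, on the log2 scale. They were higher in VEC-positive cells for Cldn5 (5.36), Vwf (4.65), Stab2 (1.91), Aplnr (1.82), Cd200 (1.80), Madcam1 (1.53), Gpr182 (1.45) and Vcam1 (1.24). They were lower for Cd44 (-2.09), Selp (-1.95), Chst1 (-1.73), Podxl (-1.63), Tie1 (-1.19) and Adgrf5 (-1.17). Among the markers of other cell types they were lower for Krt19 (-4.12), Postn (-3.54), Col3a1 (-3.34), Pdgfrb (-2.57) and Cd68 (-1.82). Further probe sets of some of these genes gave other values. They were 1.80 for Aplnr, which passed, -1.69 and -2.62 for Col3a1, which passed too, and 0.91 for Madcam1, 0.59 for Gpr182, -0.26 for Tie1 and -0.98 for Podxl, which did not. For Vcam1 they were -0.45 and -0.16, neither passing. For Cd44 they were -0.87 and -1.38, the second passing, and for Adgrf5 -1.26, which did not pass.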

How the results depend on the processing

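Calls over all probe sets and over the surface list were 1129 and 12 for the lines when confluent, 1382 and 11 when sparse, 2190 and 30 for density in VEC-positive cells, 2352 and 35 in VEC-null cells, and 1745 and 20 for the difference between the responses. Leaving out 1 copy at a time gave 1092 to 1205 and 9 to 13, 1370 to 1521 and 8 to 12, 2178 to 2311 and 29 to 31, 2330 to 2404 and 34 to 35, and 1629 to 1798 and 18 to 21. An offset of 200 gave 590, 689, 1305, 1444 and 1017 over all, and 7 surface genes for the lines when sparse. A filter at the 75th percentile gave 691 and 913 for the lines, and the mean of a gene's probe sets gave 7 surface genes when sparse. Scaling to the controls, added after seeing the data, gave 2612, 4562 and 3721 for the lines when confluent, density in VEC-positive cells and the difference, with 92.7%, 92.4% and 92.2% higher against 54.4%, 53.1% and 48.3%. The median of all probe sets moved by the same scaling to 0.505, 0.661 and 0.584. For the surface list it gave 16 higher and 1 lower against 9 and 3 when confluent and 14 and 5 against 9 and 11 for the difference. With the 4 cRNA samples as units and additive terms, 291 probe sets and 2 surface genes were called for the lines over both densities, against 769 and 6 with the copies as units; this fit has 1 residual degree of freedom. For density over both lines the numbers were 1400 and 28 against 1833 and 35. The replicate block gave 1131, 1383, 2192, 2357 and 1742 over all and 12, 11, 30, 35 and 20 in the list. Same-numbered copies shared only a number, with correlations of their deviations between -0.089 and 0.077. Values of the described genes that moved included Ushbp1 with offset 200 (3.96 and 3.81 for density) and those of Mmrn2 under control scaling (3.66 for the lines when confluent, 4.13 for density in VEC-positive cells). The cause of these moves was not tested. Dim signals limit the sparse values of Ushbp1.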
